A study of Mus musculus with 48 samples.

Results

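The genes described here encode the insulin-like growth factor (IGF) binding proteins, Igfbp1 to Igfbp7. They were taken by gene symbol and are 7 of the 29221 genes counted in 48 RNA-seq libraries of whole mouse liver. Each library came from 1 mouse, and the libraries formed 10 groups by sex, diet and labelled genotype. All mice carried floxed Pparg, the gene of the nuclear receptor PPARG, and all were on diet for 34 weeks. After 16 weeks they received an AAV8 vector with the TBG promoter, which is active in hepatocytes. The vector was AAV8-TBG-Cre in the groups labelled knockout (KO) and AAV8-TBG-null in the controls (C), so both had the virus. The diets were a low-fat diet (LF), a high-fat diet (HF), or the HF diet for 18 weeks and then, for 16 weeks, a fat-, cholesterol- and fructose-rich diet (HFCF, written N in the group names). Males had HF controls, HF labelled knockouts, HFCF controls and HFCF labelled knockouts, with 6 mice each. Females had the same groups and LF controls and LF labelled knockouts, with 4 mice each. The knockout is limited to hepatocytes, and the libraries hold RNA of the other liver cells as well. The mice were adult at the start; their age in weeks is not given in the sources used here.

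IGF1 and IGF2 are growth factors that circulate bound to these proteins, which lengthen their life in blood and control their access to the IGF receptor. Liver is the main source of circulating IGF1. IGFBP1 is made by hepatocytes in fasting and is lowered by insulin through FOXO factors. IGFBP2 is a second hepatocyte product that is sensitive to nutrition. IGFBP3 and IGFBP5 carry IGF in a ternary complex with the acid-labile subunit, the product of Igfals. IGFBP4 mostly restrains IGF action until the protease PAPP-A cuts it, and IGFBP6 prefers IGF2. IGFBP7 binds IGF weakly and is known from endothelial and matrix-producing cells.

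Members of the family lie side by side at 2 places (GRCm38). Igfbp1 (ENSMUSG00000020429, chromosome 11, 7197782 to 7202546, plus strand) and Igfbp3 (ENSMUSG00000020427, chromosome 11, 7206086 to 7213923, minus strand) end toward each other with 3539 bases between them. Igfbp2 (ENSMUSG00000039323, chromosome 1, 72824503 to 72852474, plus strand) and Igfbp5 (ENSMUSG00000026185, chromosome 1, 72857932 to 72874884, minus strand) are 5457 bases apart in the same arrangement. Igfbp4 (ENSMUSG00000017493, chromosome 11, 99041244 to 99054392, plus strand) and Igfbp6 (ENSMUSG00000023046, chromosome 15, 102144362 to 102149511, plus strand) stand alone. Igfbp7 (ENSMUSG00000036256, chromosome 5, 77349240 to 77408041, minus strand) overlaps Polr2b and the antisense gene Gm34648. The libraries do not keep strand, so reads shared by these genes cannot be told apart.

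Promoters of 5 members are printed because the results turn on these genes: Igfbp1, which varied widely within groups, Igfbp4 and Igfbp7, which moved in opposite directions with the HFCF diet, and Igfbp5 and Igfbp6, which varied together from mouse to mouse. RefSeq promoters (GRCm38.p6) were found for all 7 members. Start sites here are those of RefSeq and can differ from the gene coordinates above. For Igfbp6 the promoter ends at 102144185, before the gene start at 102144362. For Igfbp5 its lower end, 72874866, lies inside the gene, which reaches 72874884. The 250 bases before the start site are given 5′ to 3′ on the gene's strand, at chr11:7197537-7197786 (plus), chr11:99040994-99041243 (plus), chr5:77408046-77408295 (minus), chr1:72874866-72875115 (minus) and chr15:102143936-102144185 (plus). Capitals mark matches to any motif searched on both strands.
Igfbp1: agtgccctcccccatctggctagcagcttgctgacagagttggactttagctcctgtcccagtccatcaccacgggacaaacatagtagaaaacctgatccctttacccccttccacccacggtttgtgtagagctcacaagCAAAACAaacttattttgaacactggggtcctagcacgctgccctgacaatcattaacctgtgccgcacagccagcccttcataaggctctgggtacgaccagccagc
Igfbp4: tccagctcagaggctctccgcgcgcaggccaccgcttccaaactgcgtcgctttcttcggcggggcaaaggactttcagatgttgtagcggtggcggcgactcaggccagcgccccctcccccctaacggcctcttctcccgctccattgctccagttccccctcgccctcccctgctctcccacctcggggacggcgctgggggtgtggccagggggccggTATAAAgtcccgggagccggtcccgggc
Igfbp7: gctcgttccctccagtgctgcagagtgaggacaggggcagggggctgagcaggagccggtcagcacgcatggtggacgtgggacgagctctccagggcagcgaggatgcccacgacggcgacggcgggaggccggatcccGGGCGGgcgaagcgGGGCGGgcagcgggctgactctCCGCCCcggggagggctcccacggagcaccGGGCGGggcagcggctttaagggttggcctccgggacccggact
Igfbp5: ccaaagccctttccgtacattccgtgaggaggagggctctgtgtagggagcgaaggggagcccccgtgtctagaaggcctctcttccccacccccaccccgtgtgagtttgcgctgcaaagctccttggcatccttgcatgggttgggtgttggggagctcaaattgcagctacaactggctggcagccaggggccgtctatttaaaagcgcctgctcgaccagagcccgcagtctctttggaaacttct
Igfbp6: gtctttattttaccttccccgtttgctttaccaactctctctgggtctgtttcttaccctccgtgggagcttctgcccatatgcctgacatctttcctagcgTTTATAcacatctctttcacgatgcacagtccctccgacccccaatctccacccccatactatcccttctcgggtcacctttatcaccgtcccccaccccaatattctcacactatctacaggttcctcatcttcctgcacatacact

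The motifs searched were the insulin response element core CAAAACA, the FOXO motif GTAAACA, the nuclear receptor motif AGGTCA, the TATA box TATAAA and the GC box GGGCGG, none of which lies within another. CAAAACA stood 108 to 102 bases before the Igfbp1 start site, and 5.56% of all 32851 RefSeq promoters of the same length held it. TATAAA stood 28 to 23 bases before the Igfbp4 start site, and on the reverse strand 148 to 143 bases before that of Igfbp6; 12.4% of all promoters held it. The Igfbp7 window held 4 matches to GGGCGG, against 32.7% of promoters with at least 1. The Igfbp5 window held no match to these letters. GTAAACA (3.17% of all promoters) and AGGTCA (14.0%) were in none of the members' windows. Matches are descriptions of these letters and not evidence of binding.

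Gene counts summed to between 15338239 and 22072884 per library. No library was a copy of another. The median correlation of a library with the rest of its group, on log2 CPM (counts scaled to library size), was under 0.98 for 5 libraries, which were female HF control replicate 1, female HFCF labelled-knockout replicate 1, female LF control replicate 1, female HF labelled-knockout replicate 3 and male HFCF control replicate 1. The other libraries were between 0.982 and 0.992. Pparg itself was not lower in the groups labelled knockout, for example 41.2 ± 14.1 CPM (SD, n = 6) against 34.3 ± 3.95 in HF males. On the HFCF diet it was higher in labelled knockouts, at 55.9 ± 6.05 against 32.0 ± 5.59 CPM in males and 46.0 ± 9.21 against 23.7 ± 1.34 in females. The counts do not separate the deleted part of the gene. Cidec, a known PPARG target, was at 5.24 ± 0.798 CPM in HF male labelled knockouts and 134 ± 15.7 CPM in their controls. On the HFCF diet it was at 26.8 ± 11.8 against 160 ± 8.21 CPM in males and 12.1 ± 5.52 against 64.7 ± 15.3 in females. In HF females it was at 3.71 ± 1.66 against 21.7 ± 23.4 CPM, where control replicate 1 stood at 56.4. In LF females it was near equal, at 6.13 ± 1.38 CPM in labelled knockouts and 6.96 ± 2.21 in controls. The labels are used as given, and groups are called labelled knockouts. The summed level of 6 hepatocyte markers was between 36676 and 116667 CPM in every library, and the adipose and the exocrine pancreas markers found in the tables (2 of each) each summed to at most 0.147 CPM. In whole tissue, fewer cells of a type and less RNA per cell cannot be told apart.

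In CPM, which is not corrected for gene length, Igfbp4 read highest of the members and Igfbp6 lowest. Igfbp4 ran from 1010 to 2821 CPM over the 48 libraries, Igfbp2 from 60.5 to 686 and Igfbp7 from 68.6 to 287. Igfbp1 ran from 11.2 to 205 CPM, Igfbp3 from 13.1 to 61.6 and Igfbp5 from 5.89 to 67.2. Igfbp6 had at most 7.80 CPM, and it had no read in 3 libraries. Set against each other per kilobase of the deposited gene length, Igfbp4 made up between 36.4% and 73.2% of the family's summed CPM per kb in single libraries, Igfbp7 between 5.33% and 38.7%, and Igfbp2 between 5.47% and 34.9%. Per kb the order was less clear in some libraries. HFCF male control replicate 5 had 249 CPM per kb of Igfbp4 and 237 of Igfbp7. LF female labelled-knockout replicate 4 had 1.55 of Igfbp6 and 1.44 of Igfbp5.

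The makeup of the family shifted with diet. Igfbp4 held 66.0% ± 1.81 (SD, n = 6) of the summed CPM per kb in HF male controls and 43.0% ± 6.16 in HFCF male controls. In females it held 64.9% ± 4.81 on the HF diet and 43.6% ± 4.70 on the HFCF diet (controls, n = 4 each). Igfbp7 held 20.6% ± 3.03 in HF male controls and 29.5% ± 6.48 in HFCF male controls, and in females 11.4% ± 7.77 and 28.5% ± 3.93. Igfbp2 held 7.47% ± 1.76 in HF male controls and 30.2% ± 2.68 in LF female controls, the lowest and near the highest of its group values (32.5% ± 2.31 in LF female labelled knockouts). These groups differ in both diet and sex, and males had no LF group. On the HF diet Igfbp2 held 19.5% ± 11.4 in female controls, with single libraries from 6.03% to 32.1%. On the HFCF diet it held 19.9% ± 3.11 in male controls and 17.8% ± 2.76 in female controls.

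**Figure D1:**
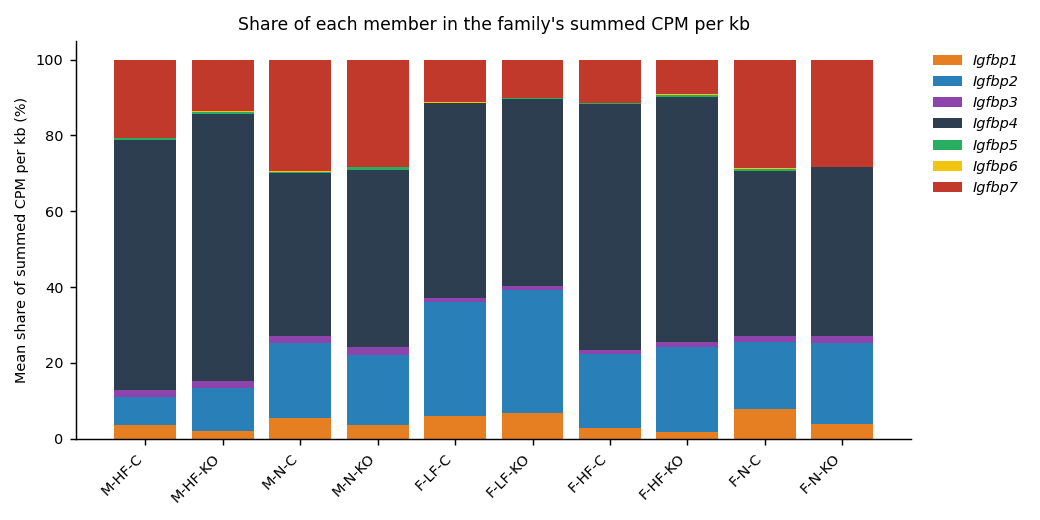
Stacked bars give each member's mean share (percent, y axis) of the family's summed CPM per kb in the 10 groups (x axis; n = 6 in males, 4 in females). Igfbp4 is the widest band in every group and is narrower on the HFCF diet (N), where Igfbp7 is wider.

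Ordered by group mean, Igfbp1 was highest in the female LF groups (108 ± 69.8 CPM in labelled knockouts and 90.4 ± 77.7 in controls, n = 4 each) and lowest in HF male labelled knockouts (21.5 ± 9.02, n = 6). None of its 9 neighbouring pairs in that order differed by more than the larger of the 2 SDs. Igfbp2 was highest in LF females (614 ± 86.8 CPM in labelled knockouts and 537 ± 18.3 in controls) and lowest in HF male controls (83.9 ± 21.8). Only the step from LF female controls down to HF female labelled knockouts (374 ± 151 CPM) and that from HF male labelled knockouts (146 ± 35.8) to HF male controls exceeded the spread. Igfbp4 was highest in HF female controls (2542 ± 352 CPM) and lowest in HFCF male labelled knockouts (1200 ± 104), and 1 of 9 steps, from HF male labelled knockouts (2141 ± 248) to HF male controls (1765 ± 80.0), exceeded the spread.

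Igfbp7 had its 4 highest means in the 4 HFCF groups, from 239 ± 33.1 CPM in female controls to 196 ± 37.0 in male labelled knockouts. The step from there to HF male controls (151 ± 21.7) was the only one of its 9 that exceeded the spread. Igfbp3 differed least, by 1.76-fold between its highest and lowest group mean (40.04 ± 6.98 CPM in HFCF female labelled knockouts and 22.7 ± 9.24 in HF female controls), with 0 of 9 steps beyond the spread. Igfbp5 and Igfbp6 had both their extremes in the same groups, HF female labelled knockouts (34.6 ± 25.4 and 2.95 ± 3.46 CPM) and HFCF female labelled knockouts (7.92 ± 2.56 and 0.220 ± 0.197 CPM). The SD of Igfbp6 was above its mean in the first of these groups.

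**Figure D2:**
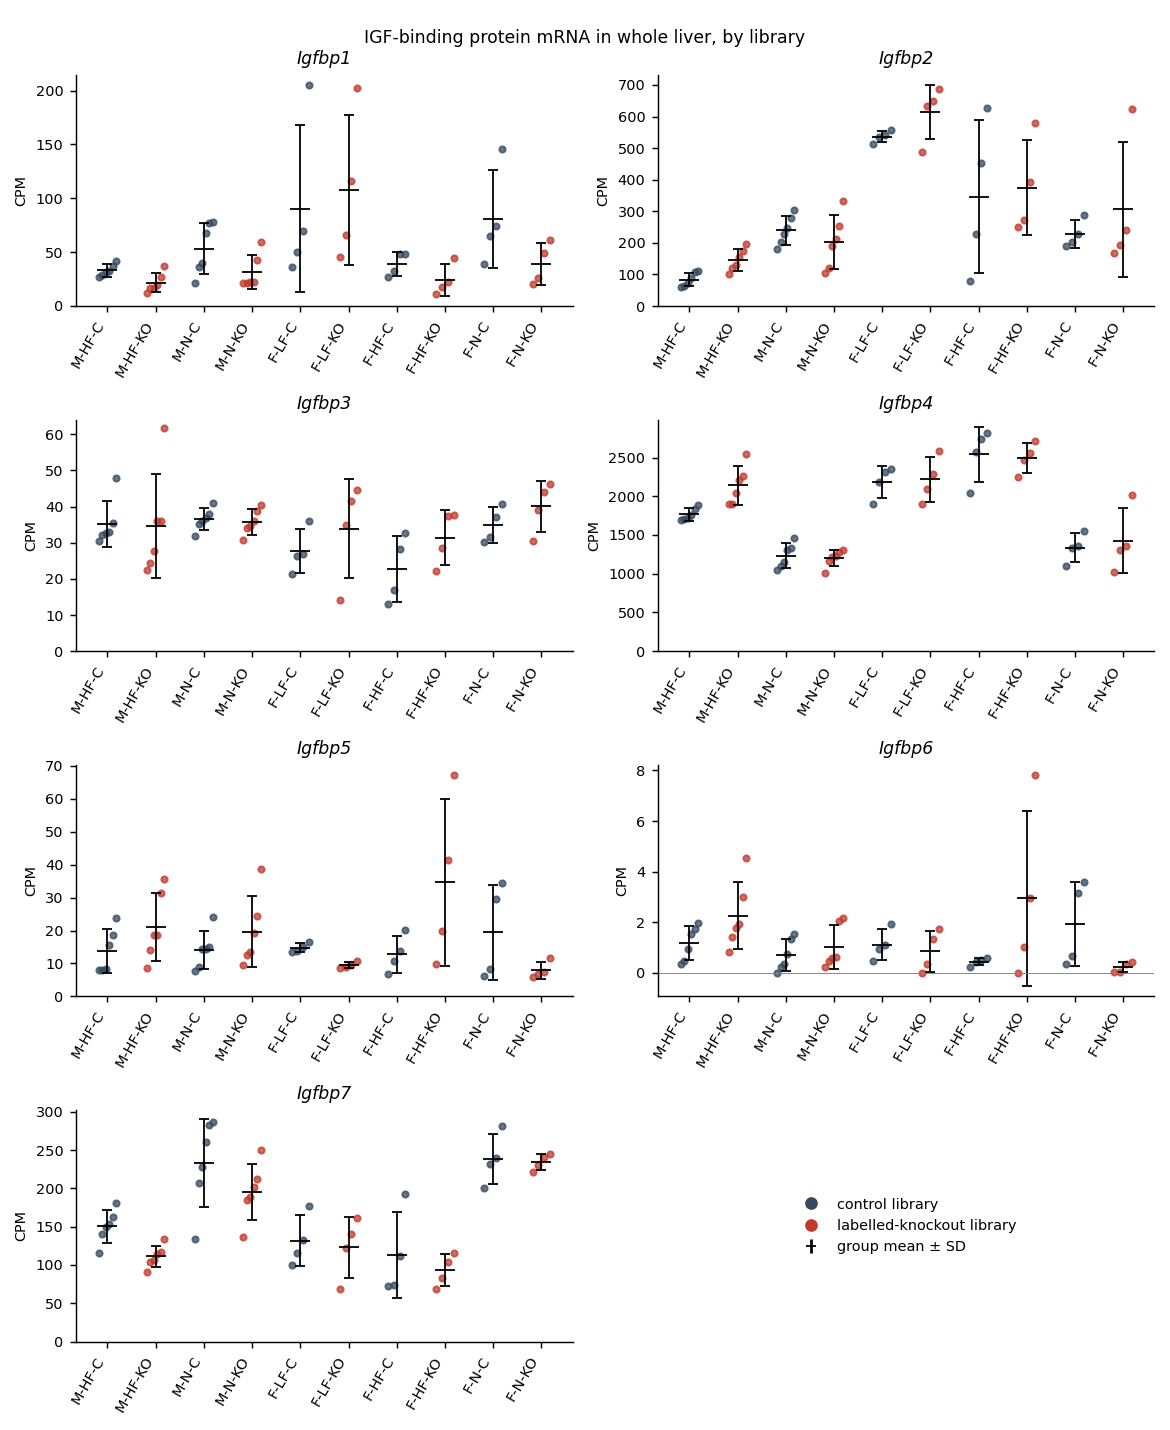
Each point is 1 library and the bars are the group mean ± SD in CPM (y axis, linear, 1 panel per gene), for 10 groups on the x axis (n = 6 in males, 4 in females). Igfbp7 is high and Igfbp4 low in the 4 HFCF (N) groups, and Igfbp2 is highest in LF females.

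The first comparison asked what the labelled hepatocyte knockout did within a sex and diet. In HF males, 4 of the 7 members were called by edgeR's quasi-likelihood test with Benjamini-Hochberg adjustment over all genes (adjusted p under 0.05), where 18.5% of all genes tested were called. Igfbp2 and Igfbp4 were higher in labelled knockouts, and Igfbp1 and Igfbp7 lower. Igfbp2 was between 60.5 and 110 CPM in controls (median 79.8) and between 100 and 197 in labelled knockouts (median 142). The ranges overlapped, and the log2 difference was 0.79 ± 0.17 (SE; adjusted p 0.00485). Igfbp4 was between 1695 and 1891 CPM in controls (median 1735) and between 1897 and 2546 in labelled knockouts (median 2124). These groups did not overlap, for a difference of 0.27 ± 0.08 (adjusted p 0.0199). The share of all genes whose groups did not overlap was not counted, so non-overlap is only a description here and below.

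Igfbp7, the member known from endothelial and matrix-producing cells, was between 116 and 181 CPM in HF male controls (median 151) and between 91.3 and 134 in labelled knockouts (median 111). The log2 difference was -0.44 ± 0.10 (adjusted p 0.00632). Igfbp1 was between 26.6 and 41.7 CPM in controls (median 31.8) and between 11.8 and 36.8 in labelled knockouts (median 18.3), for -0.62 ± 0.21 (adjusted p 0.0479). Its call was kept in 3 of the 12 refits without a single library (control replicate 4, labelled-knockout replicate 2 or 3), while the other 3 members kept theirs in all 12. The DESeq2 Wald test gave Igfbp1 an adjusted p of 0.0673, and it was 0.0760 in the authors' deposited table. When all 10 groups shared 1 fit, none of the 4 was called (adjusted p 0.0876 for Igfbp2, 0.101 for Igfbp4, 0.140 for Igfbp7 and 0.352 for Igfbp1), where 10.5% of genes were. The summed level of 8 fibroblast markers moved the same way as Igfbp7, from between 380 and 586 CPM in controls to between 248 and 338 in labelled knockouts, and 5 of the 7 tested were called lower. The hepatocyte markers moved with Igfbp2 and Igfbp4, from between 59470 and 82438 CPM to between 86866 and 100536, and 5 of 6 were called higher. Blood markers were higher as well, with 3 of 5 called and summed levels between 165 and 247 CPM in controls and between 164 and 816 in labelled knockouts. Of 7 markers each, 2 of stellate cells and 1 of endothelium were called lower, and 1 of 6 macrophage markers higher. Of all genes 18.5% were called in this comparison. The part of these marker lists in the differences was not tested.

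On the HFCF diet, no member was called between male labelled knockouts and controls, where 2.21% of genes were. Igfbp1 had an unadjusted p of 0.0392 there, with 53.3 ± 24.1 CPM in controls and 31.6 ± 16.0 in labelled knockouts (n = 6 each, log2 difference -0.76 ± 0.33, adjusted p 0.314). In females, 0 members were called on the LF diet (0% of all genes), the HF diet (0%) and the HFCF diet (0.0534%). An unadjusted p under 0.05 was found for 1 member on the LF diet, 2 on the HF diet and 2 on the HFCF diet. The DESeq2 Wald test called 1 member among these, Igfbp5 on the LF diet (adjusted p 0.0259, against 0.0510 in the authors' deposited table). Igfbp5 read 13.5, 13.9, 15.04 and 16.5 CPM in LF female controls and 8.77, 9.62, 10.8 and 8.68 in labelled knockouts. These groups did not overlap, with a log2 difference of -0.63 ± 0.13, an unadjusted p of 0.000518 and an edgeR adjusted p of 0.925.

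On the HF diet, Igfbp5 and Igfbp6 read higher in some female labelled knockouts. Igfbp5 was at 67.2, 41.5, 19.95 and 9.92 CPM in the 4 labelled knockouts and at 10.9, 6.75, 13.7 and 20.1 CPM in the 4 controls (log2 difference 1.43 ± 0.53, unadjusted p 0.0231, adjusted p 0.601). Igfbp6 was at 7.80, 2.96, 1.03 and 0 CPM against 0.577, 0.248, 0.436 and 0.490 CPM (2.73 ± 1.02, unadjusted p 0.0227, adjusted p 0.601). Within that group the highest and second highest libraries of both genes were the same mice, labelled-knockout replicates 1 and 2. These 2 mice also had the highest summed mesothelial markers of any library, 18.4 and 18.2 CPM, against 0.915 and 5.64 in the other labelled knockouts. On the HFCF diet the 2 genes ran the other way: Igfbp5 was at 6.07, 8.30, 29.4 and 34.3 CPM in female controls and at 5.89, 6.81, 7.33 and 11.7 CPM in labelled knockouts (-1.28 ± 0.50, unadjusted p 0.0272, adjusted p 0.547). Igfbp6 did not pass the filter on low counts in this comparison. The authors' deposited table gives it an adjusted p of 0.0327. The HFCF controls highest in Igfbp5, replicates 3 and 5, had summed mesothelial markers of 12.7 and 15.2 CPM. The other HFCF controls had 3.85 and 3.90 CPM, and the labelled knockouts 1.55 to 4.90. The part of these markers in the differences on either diet was not tested.

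**Figure D3:**
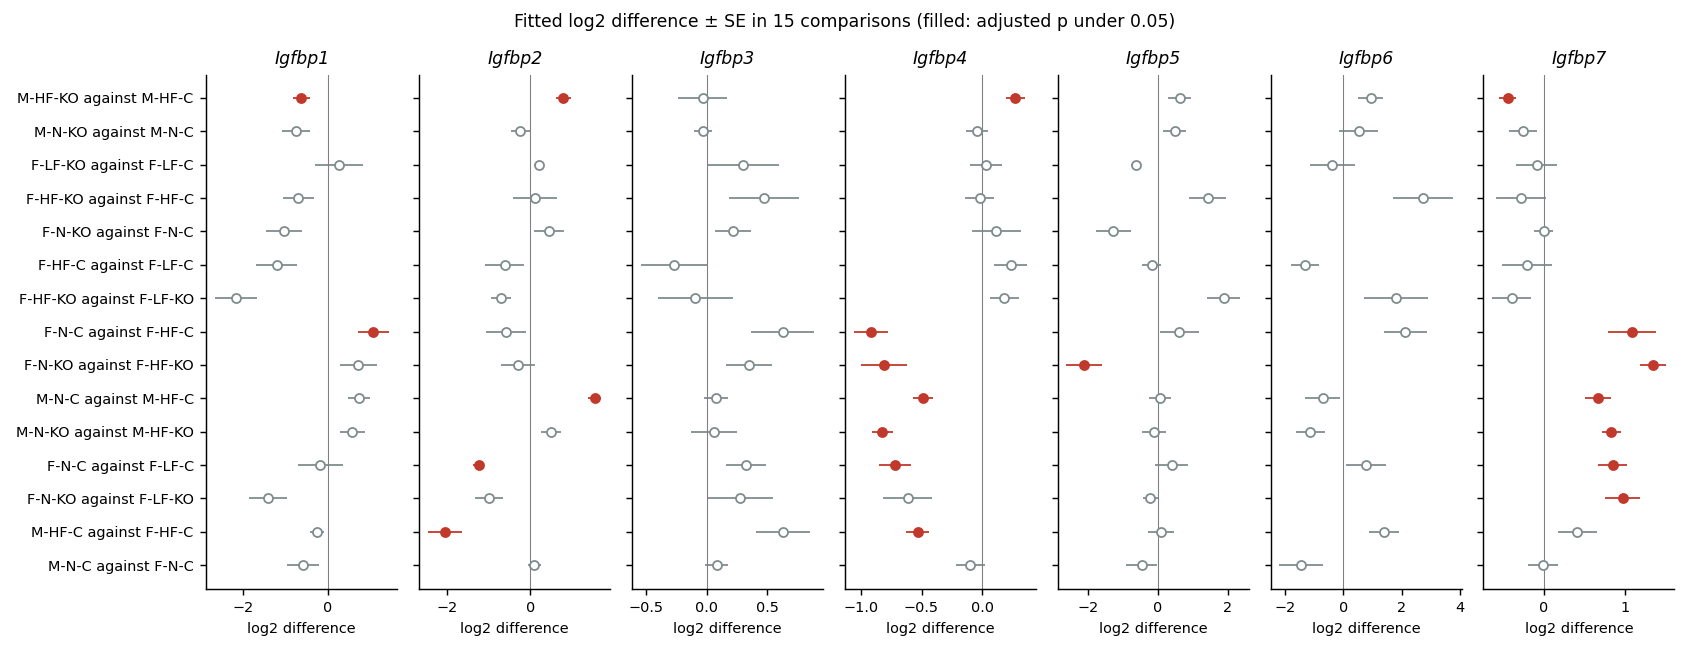
Points are fitted log2 differences (x axis, first-named group minus second) with bars of 1 SE for each member (panels) in 15 comparisons (y axis), and filled points have an adjusted p under 0.05. Igfbp4 is lower and Igfbp7 higher in the comparisons of the HFCF diet (N) with the HF diet, and no member is called for the knockout in females.

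Females also allowed a comparison of HF with LF feeding. No member was called by edgeR, neither in controls (0.696% of all genes called, 2 members at an unadjusted p under 0.05) nor in labelled knockouts (0.155%, 3 members). Igfbp1 had the largest difference. It read 45.7, 116, 66.1 and 202 CPM in LF labelled knockouts and 11.2, 22.5, 17.9 and 44.7 CPM on the HF diet. The 2 groups did not overlap, by a narrow gap, and the log2 difference was -2.16 ± 0.50 (unadjusted p 0.00134, adjusted p 0.105). Igfbp5 read 1.88 ± 0.47 higher on the log2 scale in the same comparison (unadjusted p 0.00221, adjusted p 0.123), and Igfbp2 -0.71 ± 0.24 (adjusted p 0.225). For Igfbp5 the groups overlapped, at 67.2, 41.5, 19.95 and 9.92 CPM on the HF diet and 8.77, 9.62, 10.8 and 8.68 on the LF diet. HF replicates 1 and 2, its highest, had summed mesothelial markers of 18.4 and 18.2 CPM, against 2.61 to 7.51 on the LF diet. The part of these markers was not tested. The calls for Igfbp1 and Igfbp5 depended on the test: the adjusted p was 0.0177 and 0.0319 by the DESeq2 Wald test, and 0.0198 and 0.0335 in the authors' deposited table. In controls Igfbp1 differed by -1.21 ± 0.49 (adjusted p 0.261), where LF control replicate 1 stood at 205 CPM and the other 3 between 36.5 and 69.8. Without that library the difference was -0.40 (adjusted p 0.536).

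Set against the HF diet within each sex and labelled genotype, the HFCF diet came with lower Igfbp4 and higher Igfbp7 in all 4 comparisons. Male labelled knockouts had 2 members called, where 41.7% of genes were, and male controls 3, where 22.3% were. Female controls had 3 called (30.8% of genes) and female labelled knockouts 3 (14.5%). Of the members tested, this was 2 of 7 in male labelled knockouts, 3 of 7 in both control comparisons and 3 of 6 in female labelled knockouts. The 2 male comparisons share no libraries with each other, and neither do the 2 female ones.

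Igfbp4, which restrains IGF action, was between 1695 and 1891 CPM in HF male controls and between 1044 and 1463 in HFCF male controls (medians 1735 and 1233). The groups did not overlap, and the log2 difference was -0.49 ± 0.08 (adjusted p 0.00175). In male labelled knockouts it was between 1897 and 2546 CPM on the HF diet and between 1010 and 1302 on the HFCF diet, for -0.82 ± 0.09 (adjusted p 5.26e-06). Female controls read 2038, 2741, 2567 and 2821 CPM on the HF diet and 1334, 1354, 1554 and 1100 on the HFCF diet, for -0.92 ± 0.14 (adjusted p 0.00546). Every HFCF library was below every HF library in each of these 3 comparisons. Female labelled knockouts read 2558, 2246, 2465 and 2714 CPM on the HF diet and 2012, 1356, 1310 and 1026 on the HFCF diet (-0.81 ± 0.19, adjusted p 0.0205), also without overlap. That last call was kept in 3 of the 8 refits without a single library (HF replicate 2 or 3, or HFCF replicate 1), and the others in all of theirs.

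Igfbp7 was between 116 and 181 CPM in HF male controls and between 134 and 287 in HFCF male controls (medians 151 and 244). The log2 difference was 0.66 ± 0.16 (adjusted p 0.00927), and the only HFCF library inside the HF range was replicate 1, at 134 CPM; without it the difference was 0.78 (adjusted p 4.51e-05). In male labelled knockouts Igfbp7 was between 91.3 and 134 CPM on the HF diet and between 137 and 250 on the HFCF diet, with a difference of 0.83 ± 0.12 (adjusted p 7.95e-05). Female controls read 192, 73.1, 112 and 74.0 CPM on the HF diet and 240, 281, 201 and 233 on the HFCF diet (1.09 ± 0.29, adjusted p 0.0223). The HF library at 192 CPM was replicate 1, and without it the difference was 1.48 (adjusted p 0.000213). Female labelled knockouts read 104, 116, 83.4 and 68.8 CPM on the HF diet and 222, 245, 231 and 241 on the HFCF diet (1.34 ± 0.16, adjusted p 0.00182), with no overlap.

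Igfbp1, the fasting-induced member, was called higher in female controls, close to the threshold: 47.96, 48.1, 26.6 and 32.7 CPM on the HF diet and 74.1, 65.2, 39.1 and 145 on the HFCF diet (1.07 ± 0.36, adjusted p 0.0492). This call was kept in 2 of 8 refits without a single library (HF replicate 1 or HFCF replicate 3), as was that of Igfbp7 in the same comparison. The authors' deposited table gives Igfbp1 an adjusted p of 0.0619 there. In male controls Igfbp1 differed by 0.73 ± 0.26 (adjusted p 0.0555), and by 0.89 (adjusted p 0.00173) without HFCF control replicate 1.

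Igfbp2 rose on the HFCF diet in male controls, from between 60.5 and 110 CPM (median 79.8) to between 181 and 303 (median 237). The groups did not overlap, and the log2 difference was 1.54 ± 0.16 (adjusted p 0.000122), the largest difference of any member in the 2 male comparisons of these diets. In labelled knockouts Igfbp2 was not called, at 0.49 ± 0.24 in males (adjusted p 0.116) and -0.29 ± 0.41 in females (adjusted p 0.676). Without HFCF female labelled-knockout replicate 1 the female difference was -0.88 (adjusted p 0.0402). In female controls Igfbp2 read 78.8, 627, 227 and 453 CPM on the HF diet and 203, 228, 289 and 191 on the HFCF diet, and was not called. Without HF control replicate 1, the library at 78.8 CPM, it was lower on the HFCF diet by -0.92 (adjusted p 0.0223). Leaving out that library took the members called in this comparison from 3 to 6, at 43.6% of genes called, adding Igfbp2, Igfbp3 (0.86, adjusted p 0.0121) and Igfbp6 (2.29, adjusted p 0.0459). Igfbp6 had only 4, 7 and 8 reads in the HF controls that were left. The HFCF controls highest in Igfbp6, replicates 3 and 5, had summed mesothelial markers of 12.7 and 15.2 CPM, whose part was not tested. With all libraries the authors' deposited table gives Igfbp6 an adjusted p of 0.0134.

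Igfbp5, a carrier of the ternary complex, was lower on the HFCF diet in female labelled knockouts, at 5.89, 6.81, 7.33 and 11.7 CPM against 67.2, 41.5, 19.95 and 9.92. The log2 difference was -2.12 ± 0.50 (adjusted p 0.0217), the groups overlapped, and the call was kept in 4 of 8 refits without a single library (HF replicate 3 or 4, or HFCF replicate 1 or 4). The summed mesothelial markers moved the same way, between 0.915 and 18.4 CPM on the HF diet and between 1.55 and 4.90 on the HFCF diet, with 2 of 3 tested markers called lower. Their part in the Igfbp5 difference was not tested. Igfbp3 was not called in any of the 4 comparisons with all libraries.

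The last diet comparison, in females, set HFCF against LF feeding. In controls 3 members were called, where 35.2% of genes were, and in labelled knockouts 1, where 12% were. Igfbp2 was at 543, 556, 535 and 512 CPM in LF controls and at 203, 228, 289 and 191 CPM in HFCF controls. Every HFCF library was below every LF library, and the log2 difference was -1.24 ± 0.14 (adjusted p 0.000396). Igfbp4 was lower by -0.72 ± 0.13 (adjusted p 0.00327) and Igfbp7 higher by 0.85 ± 0.18 (adjusted p 0.00565), both without overlap. How many of all genes were without overlap was not counted. In the same comparison 6 of 6 hepatocyte markers were called lower (median log2 difference -0.70), and 5 of 8 fibroblast, 5 of 5 cholangiocyte, 3 of 6 macrophage and 4 of 7 endothelial markers higher, with 1 endothelial marker lower. Their part in the Igfbp2, Igfbp4 and Igfbp7 differences was not tested.

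In labelled knockouts on the HFCF against the LF diet, Igfbp7 was called (222, 245, 231 and 241 CPM against 140, 122, 68.6 and 161; 0.97 ± 0.21, adjusted p 0.0153). It lost the call without LF labelled-knockout replicate 2 (adjusted p 0.0553). Of the fibroblast markers 4 of 8 and of the cholangiocyte markers 4 of 4 tested were called higher there, and 0 of 6 hepatocyte markers were called; their part was not tested. Igfbp1 differed there by -1.42 ± 0.45 (adjusted p 0.0616), Igfbp2 by -0.995 ± 0.34 (adjusted p 0.0804) and Igfbp4 by -0.61 ± 0.20 (adjusted p 0.0685). HFCF labelled-knockout replicate 1 stood at 623 CPM for Igfbp2 and the other 3 between 167 and 242. Without it Igfbp2 and Igfbp4 were called, at -1.60 (adjusted p 0.000416) and -0.83 (adjusted p 0.00356), so that 3 members were called, at 23.8% of genes.

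Between control males and females, 2 members were called on the HF diet (18.1% of genes) and 0 on the HFCF diet (2.63%), where no member had an unadjusted p under 0.05 and the DESeq2 Wald test called 0. On the HF diet Igfbp2 was between 60.5 and 110 CPM in males, and in females it was at 78.8 CPM in replicate 1 and from 227 to 627 in the other 3. Males were lower by -2.05 ± 0.41 on the log2 scale (adjusted p 0.00634), and by -2.38 (adjusted p 3.02e-05) without that replicate. Igfbp4 was between 1695 and 1891 CPM in males and between 2038 and 2821 in females, with no overlap (-0.53 ± 0.09, adjusted p 0.00331). Without female HF control replicate 1, Igfbp3 (0.86, adjusted p 0.00623) and Igfbp7 (0.80, adjusted p 0.00151) were also called, both higher in males, for 4 members at 34.4% of genes. With all libraries, 4 of 7 endothelial markers were called higher in males (median log2 difference 0.53), with summed levels between 303 and 454 CPM in males and between 226 and 323 in females. Among the other lists 1 of 8 fibroblast markers and 1 of 5 blood markers were higher and 1 of 6 hepatocyte markers lower. Their part in the sex differences was not tested.

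Differences between these effects were tested as interactions, and edgeR called no member in any of the 7; over these, 16 tests of a member had an unadjusted p under 0.05, and the DESeq2 Wald test called Igfbp2 in 2 of them. The shares of all genes called were 1.56% for knockout by diet (HFCF against HF) in males, 0% for the same in females and 0% for knockout by diet (HF against LF) in females. They were 0% for knockout by sex on the HF diet and 0% on the HFCF diet, 0.00646% for diet (HFCF against HF) by sex in controls, and 0.013% for diet by sex in labelled knockouts. For knockout by diet in males, Igfbp2 had an interaction of -1.06 ± 0.31 (adjusted p 0.0747) and Igfbp4 of -0.33 ± 0.12 (adjusted p 0.130). The call for Igfbp2 depended on the test: the DESeq2 Wald test gave it an adjusted p of 0.0491, and among 24 edgeR refits without a single library the number of members called was 0 or 1. For knockout by diet (HFCF against HF) in females, Igfbp5 had -2.72 ± 0.81 (unadjusted p 0.00405, adjusted p 0.958). The summed mesothelial markers of these libraries are given above, and their part was not tested.

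For the diet effect by sex in controls, Igfbp2 had an interaction of 2.15 ± 0.49 (unadjusted p 0.000267, adjusted p 0.127 by edgeR, 0.0188 by the DESeq2 Wald test). Without female HF control replicate 1, 3 members were called in this interaction, Igfbp2 (2.48, adjusted p 0.000265), Igfbp3 (-0.77, adjusted p 0.0411) and Igfbp4 (0.54, adjusted p 0.0248), where 10.8% of all genes were called. With male HFCF control replicate 1 left out as well, Igfbp7 was the fourth (-0.68, adjusted p 0.0340), at 11.4% of genes called. Leaving out the male library alone gave 0 calls.

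Other genes of the IGF system were read from a list of 17 ligands, receptors, adaptors, proteases and regulators, of which 16 were in the tables. In HF males 3 were higher and 2 lower of 12 tested in labelled knockouts, where 18.5% of all genes were called (median log2 difference 0.04, all genes 0.00). Igfals, the acid-labile subunit, rose from 69.3 to 132 CPM (0.92, adjusted p 3.56e-05), Igf1 from 431 to 573 (0.40, adjusted p 0.00931) and Ghr, the growth hormone receptor, from 564 to 691 (0.29, adjusted p 0.00989). Igf2r, which clears IGF2, fell from 81.8 to 67.5 CPM. In the other 4 knockout comparisons and in both comparisons of HF with LF, 0 genes of the list were called.

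On the HFCF diet the called genes of the IGF system list went both ways. Against the HF diet, male controls had 3 genes of the list higher and 4 lower of 12 tested (22.3% of all genes called), male labelled knockouts 4 and 3 (41.7%), female controls 3 and 4 (30.8%), and female labelled knockouts 2 and 4 (14.5%). The list's median log2 differences were 0.11, 0.14, -0.13 and -0.13 in that order. Ghr fell in all 4, by 0.46, 0.52, 0.64 and 0.53 on the log2 scale in that order. Igfals fell from 132 to 60.9 CPM in male labelled knockouts (adjusted p 2.00e-06) and from 168 to 74.7 in female controls (adjusted p 0.00917). Htra1, a protease that cuts IGFBPs, rose from 6.14 to 12.4 CPM in male controls and from 3.98 to 10.1 in male labelled knockouts. Stc2, an inhibitor of PAPP-A, was low throughout and rose from 0.691 to 1.75 CPM in male controls.

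Against the LF diet, HFCF female controls had 3 genes of the IGF system higher and 5 lower of 13 tested, where 35.2% of all genes were called (median -0.20, all genes -0.02), with Igf1 at 374 CPM against 702 (adjusted p 0.00232). Labelled knockouts had 1 higher and 1 lower of 12 (12% of all genes). Between the sexes on the HF diet, 1 was higher and 3 were lower in males of 12 tested (18.1% of all genes), with Igfals at 69.3 CPM in males and 168 in females (adjusted p 0.000126). On the HFCF diet 1 of 13 was called (2.63% of all genes), Irs2, an adaptor of insulin signalling, at 33.3 CPM in males and 45.7 in females.

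The CCN family shares an IGFBP-type domain, and 6 members were looked up. No CCN gene was called in the 5 knockout comparisons, in HF against LF, or between the sexes. On the HFCF against the HF diet, 4 of 4 tested were higher in male controls (median 0.94, all genes 0.01; 22.3% of all genes called), 3 of 4 in male labelled knockouts (median 0.78; 41.7%), 3 of 4 in female controls (median 1.92; 30.8%) and 3 of 3 in female labelled knockouts (median 2.10; 14.5%). Ctgf, which is induced in matrix-producing cells, rose from 9.06 to 17.9 CPM in male controls and from 4.97 to 20.4 in female controls. Cyr61 rose from 13.04 to 20.01 CPM in male controls. Against the LF diet 3 of 4 were higher in female controls (35.2% of all genes called) and 2 of 3 in labelled knockouts (12%).

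Igfbp1 is one of many hepatocyte genes induced by fasting and stress, and 10 others were followed. In HF male labelled knockouts, 1 was higher and 3 lower of 10 tested, where 18.5% of all genes were called (median -0.39, all genes 0.00). Atf3, a stress-induced transcription factor, fell from 7.34 to 2.84 CPM (adjusted p 0.000324) and Cdkn1a, a cell cycle inhibitor, from 16.8 to 5.98 (adjusted p 0.000802). In HFCF males Trib3 alone was lower, and in the female knockout comparisons 0 were called. In HF against LF female labelled knockouts, where Igfbp1 had its largest difference, G6pc, the glucose-releasing enzyme, was the only one called and was lower (399.9 to 112 CPM, adjusted p 0.0404).

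On the HFCF against the HF diet, the fasting and stress list had 3 higher and 1 lower of 10 tested in male controls (22.3% of all genes called), 4 and 1 in male labelled knockouts (41.7%), 3 and 0 in female controls (30.8%), and 2 and 1 of 9 in female labelled knockouts (14.5%). In male labelled knockouts and female controls these shares are near those of all genes. Cdkn1a rose from 5.98 to 16.5 CPM in male labelled knockouts and from 5.82 to 22.2 in female controls. Pck1, the entry enzyme of glucose synthesis, fell from 1639 to 699 CPM in male labelled knockouts. On the HFCF against the LF diet the list had 4 higher and 2 lower of 9 in female controls (35.2% of all genes called) and 3 and 2 in labelled knockouts (12%), with Pck1 at 823 CPM against 3102 in labelled knockouts (adjusted p 0.00145). Between the sexes on the HF diet 1 was higher and 1 lower in males of 10 tested (18.1% of all genes), and on the HFCF diet 0 of 10 were called.

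Within groups, several members varied from mouse to mouse with sets of cell markers, some with the same sets in opposite directions. Deviations of each library from its group mean, on log2(CPM + 0.5), were correlated over the 48 libraries for 91 pairs of a member with a marker list or another member, with 100000 permutations within groups (two-sided, Benjamini-Hochberg over the 91). Igfbp7 followed the 8 fibroblast markers with Pearson's r 0.914 and Spearman's rho 0.845 (permutation p 1e-05 for each, the smallest these permutations can give, adjusted 0.00013 and 0.000182). Without the 2 libraries farthest from the median r was 0.884, and it was 0.881 in males and 0.935 in females. Igfbp7 also followed the cholangiocyte markers (r 0.738, rho 0.641), the endothelial markers (0.603, 0.644) and the stellate cell markers (0.579, 0.557), each with an adjusted permutation p of at most 0.00795. Igfbp1 passed after adjustment with no marker list. Its lowest adjusted permutation p was 0.110, with the cholangiocyte markers (r 0.352).

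Igfbp4 and Igfbp2, made by hepatocytes, ran against the fibroblast markers. For Igfbp4 r was -0.641 and rho -0.639 (permutation p 2e-05 and 3e-05, adjusted 0.000227 and 0.000303), with -0.586 without the 2 farthest libraries, -0.580 in males and -0.667 in females. For Igfbp2 r was -0.768 and rho -0.629 (permutation p 1e-05 and 3e-05, adjusted 0.00013 and 0.000303), with -0.709 without the 2 farthest. Against the cholangiocyte markers r was -0.650 and rho -0.684 for Igfbp4 (permutation p 3e-05 and 2e-05, adjusted 0.000303 and 0.00026), and -0.605 and -0.557 for Igfbp2 (permutation p 6e-05 and 0.0001, adjusted 0.000546 and 0.000827). With the hepatocyte markers neither passed after adjustment, with r 0.456 and rho 0.239 for Igfbp4 (permutation p 0.0270 and 0.140, adjusted 0.112 and 0.410) and r 0.327 and rho 0.200 for Igfbp2 (permutation p 0.0436 and 0.199, adjusted 0.165 and 0.488). Igfbp2 and Igfbp4 followed each other (r 0.677, rho 0.705, permutation p 1e-05 for both, adjusted 0.00013 and 0.000182), and Igfbp4 ran against Igfbp7 (r -0.516, rho -0.506, permutation p 0.00019 and 0.00105, adjusted 0.00144 and 0.00683). The summed fibroblast markers were higher on the HFCF diet, between 479 and 1020 CPM in male controls against 380 to 586 on the HF diet, and between 722 and 1171 CPM in female controls against 152 to 688. The 688 CPM was replicate 1, the library with the high Igfbp7. The summed cholangiocyte markers were higher too, between 17.7 and 76.3 CPM in HFCF male controls against 12.95 to 22.5 on the HF diet, and between 34.2 and 59.6 CPM in female controls against 8.67 to 29.4. Of them 5 of 5 were called higher in both control comparisons and in male labelled knockouts, and 4 of 4 tested in female labelled knockouts, with median log2 differences between 1.38 and 2.01. Macrophage markers were called higher in 3 of 6 in each control comparison, 4 of 6 in male labelled knockouts (1 lower) and 1 of 6 in female labelled knockouts. Endothelial markers were called higher in 1 of 7 in male controls, 6 of 7 in female controls and 2 of 7 in both labelled-knockout comparisons, and blood markers lower in 5 of 5 in male labelled knockouts. Of 7 stellate cell markers, 2 were higher and 1 lower in each control comparison, 3 and 1 in male labelled knockouts, and 3 and 0 in female ones. Of all genes, 22.3% were called in male controls, 41.7% in male labelled knockouts, 30.8% in female controls and 14.5% in female labelled knockouts. The endothelial counts in males were below these shares. Fibroblast markers were called higher in 5 of 8 in male controls and 8 of 8 in male labelled knockouts. Female controls had 3 of 8, near the share of all genes, and female labelled knockouts 6 of 7. The summed hepatocyte markers were lower, between 36676 and 60116 CPM in male controls against 59470 to 82438. In female controls they were between 52585 and 65373 CPM against 87262 to 102176. In female labelled knockouts the sums overlapped, between 59727 and 107871 CPM against 95184 to 116667. Of 6 hepatocyte markers, 4 were called lower in male controls and 6 in male labelled knockouts. Female controls had 5 called lower and female labelled knockouts 0. The part of these cells in the diet differences of Igfbp7 and Igfbp4 was not tested.

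Igfbp5 and Igfbp6 followed each other and the sum of the mesothelial markers Msln, Upk3b, Wt1 and Upk1b, which were not correlated singly. Between groups Wt1 did not always move with the others. In female labelled knockouts its median was 1.90 CPM on the HF diet and 2.41 on the HFCF diet. Upk3b went from 4.23 to 0.209 CPM there and Msln from 3.07 to 0.435. Between the 2 genes r was 0.825 and rho 0.793 (permutation p 1e-05 for both, adjusted 0.00013 and 0.000182). With the summed mesothelial markers r was 0.778 for Igfbp5 and 0.839 for Igfbp6 (rho 0.773 and 0.809, permutation p 1e-05 for each, adjusted 0.00013 and 0.000182). Without the 2 farthest libraries these were 0.726 and 0.780. In males r was 0.896 and 0.877 and in females 0.760 and 0.841. With the fibroblast markers r was 0.00319 and -0.00115. Mesothelium covers the liver surface, and its markers summed to at most 18.4 CPM in any library.

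**Figure D4:**
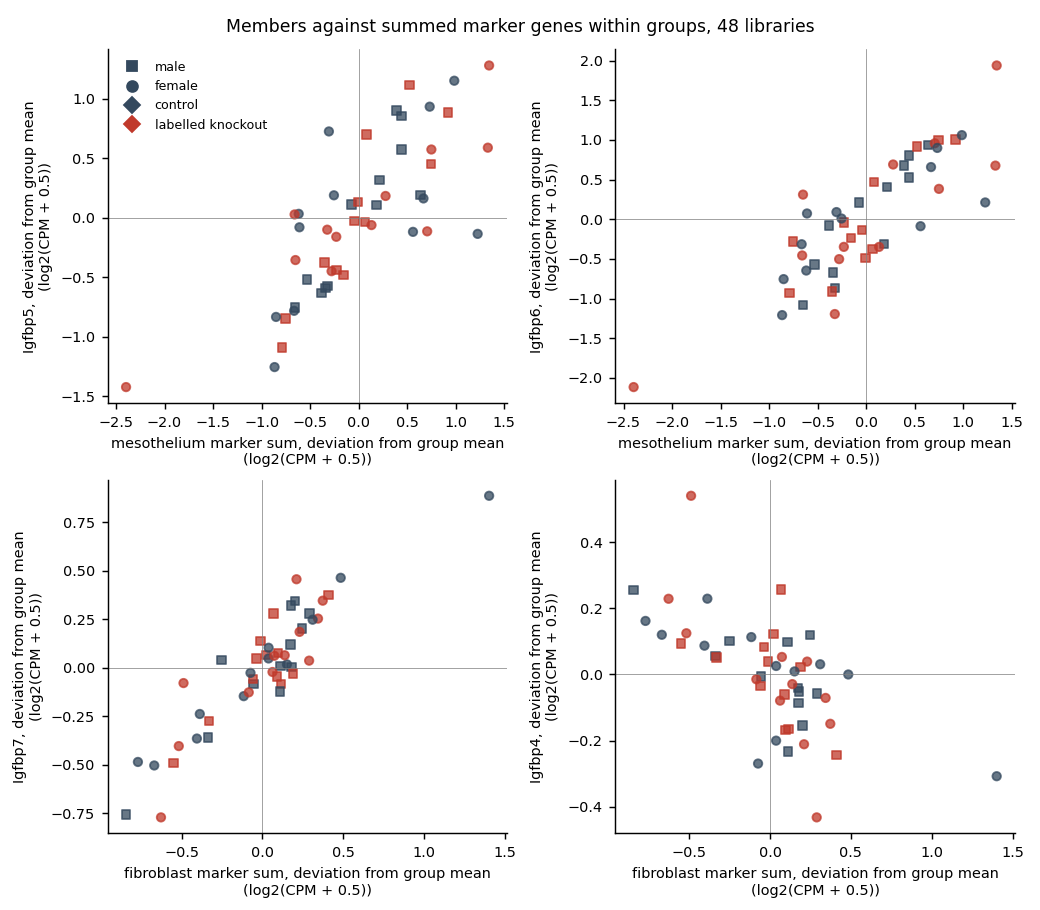
Each point is 1 of 48 libraries, with the summed marker genes on the x axis and the member on the y axis, both as deviations from the group mean of log2(CPM + 0.5); squares are males, circles females, and colour gives the labelled genotype. Igfbp5 and Igfbp6 rise with the mesothelial markers (r 0.778 and 0.839), Igfbp7 rises with the fibroblast markers (0.914) and Igfbp4 falls with them (-0.641).

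The genes most alike each member were searched among 12289 genes by the same deviations, as a description. Igfbp7 was closest to Bgn (r 0.928), Sparc (0.921) and Dcn (0.907), which encode extracellular matrix proteins. Dcn is also among the summed fibroblast markers, so its match is not independent of theirs. Igfbp6 was closest to Upk3b (0.912), Spock2 (0.878) and Msln (0.860), and Igfbp5 to Upk3b (0.856), Igfbp6 (0.825) and Msln (0.814). Upk3b and Msln are among the summed mesothelial markers, so these matches partly repeat that relation. Igfbp4 was closest to Ndrg2 (0.861), Pbld1 (0.860) and Msrb1 (0.854), and Igfbp2 to Scnn1a (0.846), Ang (0.845) and Cnbp (0.836). Igfbp3 was closest to Sod3 (0.801), Colec11 (0.778) and Ntn4 (0.754). Igfbp1 was closest to Irf2bp2 (0.847), Ifrd1 (0.726) and Fst (0.710), and among members its r of largest size was -0.434, with Igfbp4. Igfbp3, in contrast to Igfbp1 beside it on chromosome 11, had r 0.621 with Igfbp7 (0.266 in males, 0.805 in females) and 0.629 with the stellate cell markers, and r between the 2 neighbours was 0.0353. For the neighbours Igfbp2 and Igfbp5 r was -0.170.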

How the data were processed

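Whole-liver RNA of 48 mice was measured by RNA-seq without strand. The authors deposited 11 tables of raw read counts per gene with gene length and their own log2 fold changes and p-values with adjusted p-values (authors' deposited table). The submitters' processing notes name STAR 2.6.1, HTSeq 0.6.1 and DESeq2 with GRCm38, and do not say in which order or role. The tables were joined by gene, and 0 of 1341082 repeated counts differed. Of the genes found in GENCODE M21, 97.4% had equal coordinates.

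Each comparison was fitted to its own groups in edgeR 4.0.16 (filterByExpr, TMM, quasi-likelihood F test, Benjamini-Hochberg over all genes tested, threshold 0.05), after a check on simulated counts. Levels are CPM with TMM factors over all libraries, and only values per kb of deposited gene length are compared between genes. DESeq2 1.42.0 size factors and Wald test, no filter, all 10 groups fitted together, a block for replicate number, and leaving out each library were tried. Leaving out the 5 libraries that stand apart together was chosen after seeing the data, as was their threshold.

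All 7 members are named throughout. Of the IGF system list up to 4 called genes with the lowest p were eligible to be named in a comparison, and of the CCN and the fasting and stress lists up to 3. The 3 genes most alike each member had a mean of at least 1 CPM. Members and lists were chosen with earlier results of these data known. Depth was between 15338239 and 22072884 reads, so that genes under 1 CPM, such as Igfbp6 in many libraries, rest on few reads. The labels name each library as 1 mouse.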

Additional observations from a re-analysis of the deposited data

Results flagged for a closer look

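In 70 groups of libraries examined (7 members in 10 groups), 3 had a library far from the others of its group, where chance flags about 1 group in 20. Female HFCF labelled-knockout replicate 1 had 623 CPM of Igfbp2 where the other 3 had between 167 and 242, and it is 1 of the 5 libraries that stand apart over all genes. Male HF control replicate 5 had 47.9 CPM of Igfbp3 where the others were at most 35.4, and male HF labelled-knockout replicate 6 had 61.6 CPM of Igfbp3 where the others were at most 36.0. These 2 libraries were not among the 5.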

How the results depend on the processing

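The count of members called moved by more than 1.5 times under these settings. With all 10 groups in 1 fit it was 0 (4 with the groups alone) for the knockout in HF males, 2 (0) for HF against LF in labelled knockouts and 4 (1) for HFCF against LF in labelled knockouts. By the DESeq2 Wald test it was 1 (0) for the knockout in LF females, 2 (0) and 2 (1) for those 2 diet comparisons of labelled knockouts, 4 (2) for males against females on HF, 1 (0) for knockout by diet in males and 1 (0) for diet by sex in controls. With no filter it was 2 (0) and 3 (1) for the same 2 diet comparisons. With the replicate number as a block it was 1 (0) and 2 (1) for these, and 0 (3) for HFCF against HF in female controls. Correlations of same-numbered libraries ran from -0.255 to 0.393, and in 0 of 15 comparisons did all pairs exceed 0.1, so the numbers do not pair the mice. Without the 5 libraries that stand apart it was 6 (3) for HFCF against HF in female controls, 3 (1) for HFCF against LF in labelled knockouts, 4 (2) for males against females on HF and 4 (0) for diet by sex in controls. DESeq2 size factors moved no count by that much. The cause was not tested.

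Leaving out 1 library at a time gave 3 to 4 members for the knockout in HF males, 1 to 6 for HFCF against HF in female controls and 1 to 4 in female labelled knockouts, 3 to 4 in male controls and 2 to 3 in male labelled knockouts, 3 to 4 for HFCF against LF in controls and 0 to 3 in labelled knockouts, 2 to 4 between the sexes on HF, 0 to 1 for knockout by diet in males, 0 to 3 for diet by sex in controls, and 0 to 0 elsewhere. Of 151 member differences tested, the 58 with an unadjusted p under 0.05, chosen after seeing the fits, were recomputed singly: 0 of 1041 values reversed, 43 lost a call and 50 gained one. Of the other 93 differences, 43 changed sign under at least 1 setting. For 73 named differences of other genes 0 of 1131 values reversed and 129 lost a call.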
